A study of Mus with 18 samples.

Results

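The SOCS family comprises the suppressors of cytokine signalling, which are feedback inhibitors of receptors that signal through Janus kinases (JAKs) and STAT transcription factors. All 8 members were chosen by gene name, Socs1 to Socs7 and Cish, from a table of 54532 genes in RAW264.7 cells. The rule uses gene names only, but the family was picked with earlier results of these data known. RAW264.7 is a tumour-derived mouse macrophage-like line. The study had 6 groups of 3 libraries, all collected after 6 h. Untreated cells served as control, and a second group received bacterial lipopolysaccharide (LPS), the ligand of Toll-like receptor 4, at 1 µg/mL. Each of the other 4 groups received the same LPS together with one compound at 100 µM. These compounds were the plant phenols caffeic acid (CA) and chlorogenic acid (CGA) and the adduct of each with cysteine (CACys and CGACys). In CGA the caffeic acid is esterified with quinic acid. No group here received a compound without LPS or cysteine alone, so every compound effect is an effect on cells that also received LPS.

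SOCS proteins share a central SH2 domain, which binds phosphotyrosine on receptors or kinases, and a C-terminal SOCS box, which recruits elongins and a cullin and directs bound proteins to degradation. SOCS1 and SOCS3 also carry a kinase inhibitory region that blocks JAK activity directly. STATs and, in macrophages, Toll-like receptor signals raise transcription of several members, and the proteins then restrain the same cytokine receptors, which closes the loop. CIS (the product of Cish) and SOCS2 are best known as restraints on STAT5 and growth hormone signalling, whereas SOCS4 to SOCS7 have been linked mainly to receptor tyrosine kinases and insulin signalling.

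Library totals ran from 16105817 to 25624935 counts. After a filter on low counts 13251 genes were tested, and all 8 SOCS genes passed. Levels are in CPM, the count divided by the scaled library total. The filter asked for about 0.522 CPM in 3 libraries, which Socs2 reached in 10 of 18 libraries, Cish in 15, Socs1 in 17 and the other members in all 18. Of the 10 macrophage markers 9 were tested, and their summed level was 6434 to 6632 CPM in control, 5886 to 6050 with LPS, 5240 to 5460 with LPS + CA, 5658 to 5753 with LPS + CGA, 5178 to 5263 with LPS + CACys and 4752 to 4796 with LPS + CGACys. The mannose receptor gene Mrc1, which is a marker of some macrophages only, did not exceed 1.30 CPM. Summed markers of neutrophils and mast cells reached 16.8 CPM at most and those of fibroblasts 8.28 CPM. Those of lymphocytes reached 1.51 CPM and those of epithelium 0.221 CPM. Of these lists Mpo, Col3a1 and Ncr1 were at 0 in every library, while S100a8 reached 12.5 CPM, Pdgfra 6.00 CPM and Pax5 1.24 CPM. The library LPS + CA replicate 2 stood apart in its share of counts from ribosomal protein genes, 4.93% against 3.64% to 4.29% in the other 17.

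Levels were scaled by TMM factors and are given as mean ± SD with n = 3 libraries. They are not set against each other between genes, because no transcript lengths were used. A gene was called where edgeR's quasi-likelihood F test gave a Benjamini-Hochberg adjusted p of 0.05 or less over all tested genes. Differences are log2 fold changes with their standard error (SE).

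The response of the family to LPS alone was led by the genes of the direct JAK inhibitors and by Cish. LPS raised 4 of the 8 members and lowered 2, where 30.6% of all tested genes were called higher and 31.6% lower. Socs3, Cish, Socs1 and Socs7 rose, and Socs4 and Socs5 fell. Of the 9 tested macrophage markers LPS raised 4 and lowered 5. It also raised 3 of 4 tested markers of neutrophils and mast cells, 3 of 3 of fibroblasts and 1 of 1 of lymphocytes. The lymphocyte marker, Pax5, passed the filter only through groups with LPS, as its whole list reached 0.324 CPM at most in control. Markers this low in control are tested only if they are higher elsewhere. These counts therefore show no shift of cell types. The part of these marker changes in the SOCS differences was not tested. In bulk libraries a higher level in every cell and a higher level in some cells cannot be told apart.

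Socs3 lies on chromosome 11 at 117966079 to 117970336 (GRCm38.p6, protein coding, as are the other 7 members). Its protein acts chiefly on gp130-type receptors such as that of interleukin 6. The control libraries held 17.4, 15.8 and 12.0 CPM and the LPS libraries 335.9, 359.7 and 337 CPM. Every LPS library was thus far above every control library. The level rose 22.7-fold, a log2 difference of 4.51 (SE 0.10, adjusted p = 6.71e-18).

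Socs1 lies on chromosome 16 at 10783808 to 10785536 and encodes the main restraint on interferon receptors. It was at 1.09, 1.73 and 0.378 CPM in control, from 23, 34 and 7 counts, and at 13.0, 11.1 and 11.7 CPM with LPS. The groups did not overlap, but the control level was loosely measured, with an SD of 63.4% of the mean. Socs1 was higher by 3.46 on the log2 scale (SE 0.30, 95% interval 2.82 to 4.09, adjusted p = 1.24e-08).

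Cish lies on chromosome 9 at 107296659 to 107302784. In control it rested on 2, 5 and 7 counts, which is 0.0947, 0.254 and 0.378 CPM, against 3.48, 4.47 and 3.56 CPM with LPS. The groups were apart, and the difference was 3.98 (log2; SE 0.38, adjusted p = 2.97e-10). Its interval of 3.20 to 4.76 shows how little the control counts fix the size of the change.

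The other members moved by much less. Socs7 (chromosome 11, 97362292 to 97398542) was at 41.0, 38.6 and 42.9 CPM in control and at 59.3, 51.5 and 54.4 CPM with LPS. It rose 1.35-fold (log2 0.43, SE 0.07, adjusted p = 9.71e-06) and the groups did not overlap. Socs4 (chromosome 14, 47276920 to 47296102) stood at 39.6 ± 0.729 CPM in control and at 30.3 ± 0.42 CPM with LPS, so it fell by 0.39 on the log2 scale (SE 0.07, adjusted p = 1.3e-05). Its 3 libraries within each group were close together, so a 1.31-fold change stood clear of the spread.

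Socs5 (chromosome 17, 87107278 to 87137647) was at 26.6, 24.9 and 22.7 CPM in control and at 16.1, 15.9 and 17.9 CPM with LPS. Every LPS library lay below every control library, and the log2 change was -0.57 (SE 0.10, adjusted p = 8.89e-06). Socs6 (chromosome 18, 88865169 to 88894364) was at 19.7 ± 1.52 CPM in control and 22.2 ± 0.991 CPM with LPS. The groups overlapped and the log2 difference of 0.17 (SE 0.08) had an adjusted p of 0.0669. That p lies near the threshold and passed it without control replicate 1, where it was 0.0198. Socs2 (chromosome 10, 95383903 to 95417321) had 7, 13 and 7 counts in control and 9, 11 and 1 with LPS, and its log2 difference of -0.24 had a 95% interval from -1.61 to 1.14. At this depth a change of Socs2 with LPS within that interval was not detectable. Annotated long non-coding RNAs overlap Socs2 (Gm33230) and Socs5 (Gm30510), and whether counting used strand is not given in the sources used here, so reads of these pairs may not be fully separated.

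**Figure D1:**
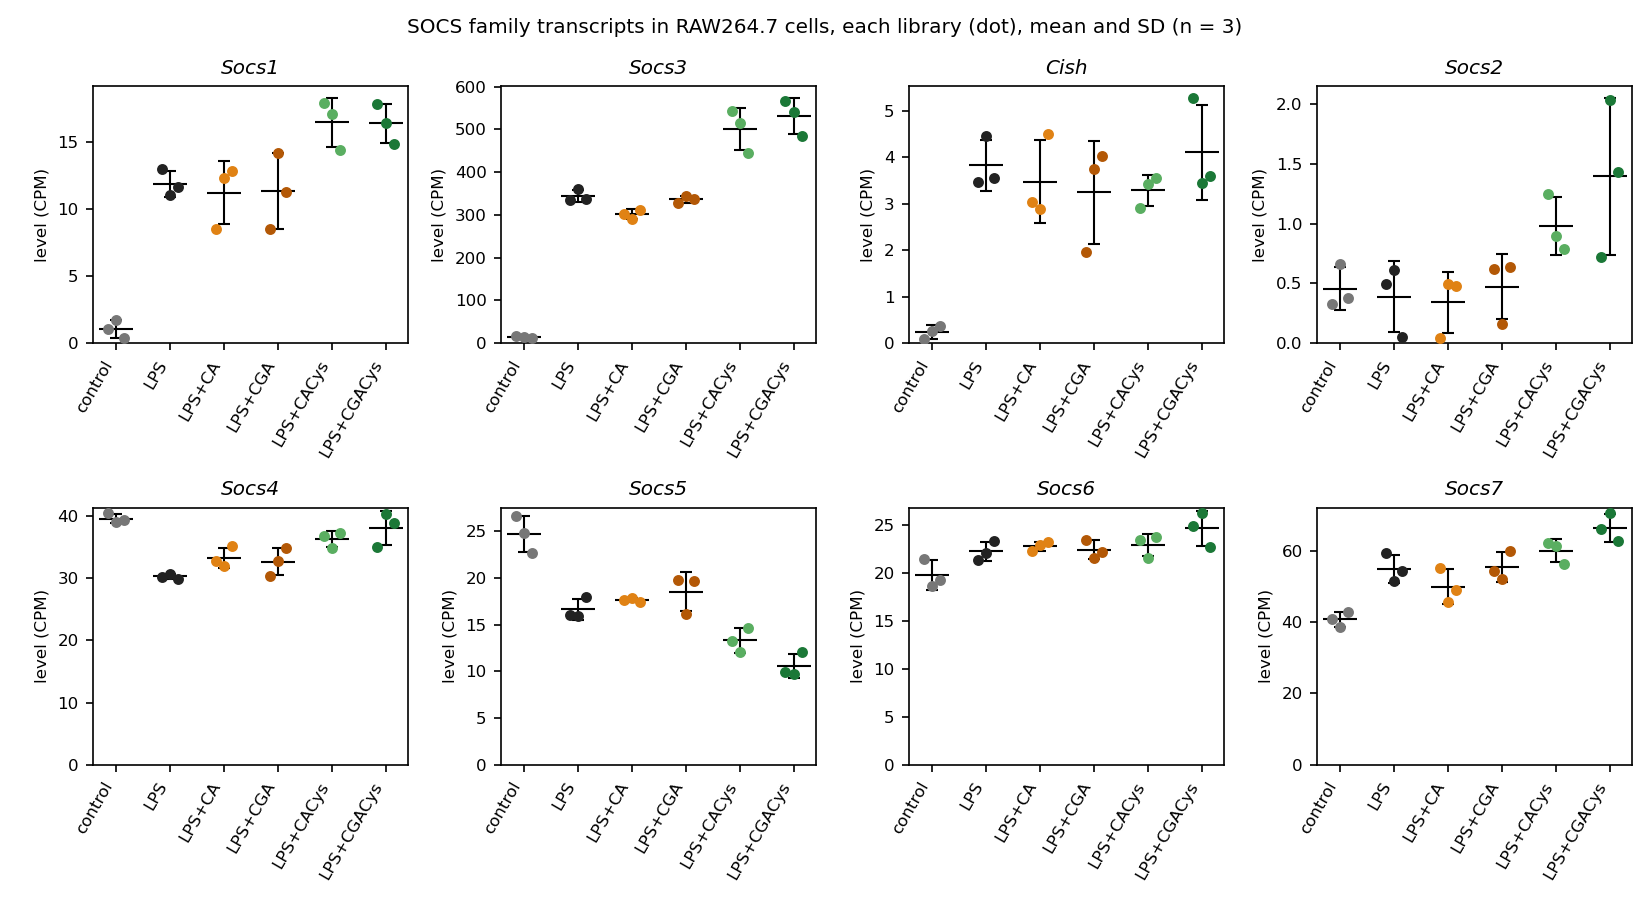
Level of each SOCS family gene (CPM, linear axis from 0, a separate scale per gene) in the 6 groups; dots are libraries, the long bar is the mean and the whiskers are the SD (n = 3). Socs1 and Socs3 rise with LPS and stand highest with both cysteine adducts, Socs5 is highest in control and lowest with both adducts, and Socs6 stays between 18.6 and 26.2 CPM in all libraries.

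Because Socs3 dominated the LPS response, the family's make-up changed. Socs3 held 10.6% ± 1.59 of the counts of all 8 genes in control and 71.0% ± 1.31 with LPS. The share was 68.5% ± 0.132 with LPS + CA, 70.0% ± 1.09 with LPS + CGA, 76.5% ± 1.54 with LPS + CACys and 76.6% ± 1.26 with LPS + CGACys. Both adduct groups lay above the other 3 LPS groups without overlap. The summed family level was 142 ± 5.9 CPM in control, 485 ± 9.97 with LPS, 440.2 ± 15.8 with LPS + CA, 481 ± 12.5 with LPS + CGA, 654 ± 52.9 with LPS + CACys and 692 ± 46 with LPS + CGACys. Shares of counts favour long transcripts, so they describe the libraries and not relative numbers of molecules. They were chosen as a summary after the values had been seen, and no test was made on them.

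**Figure D2:**
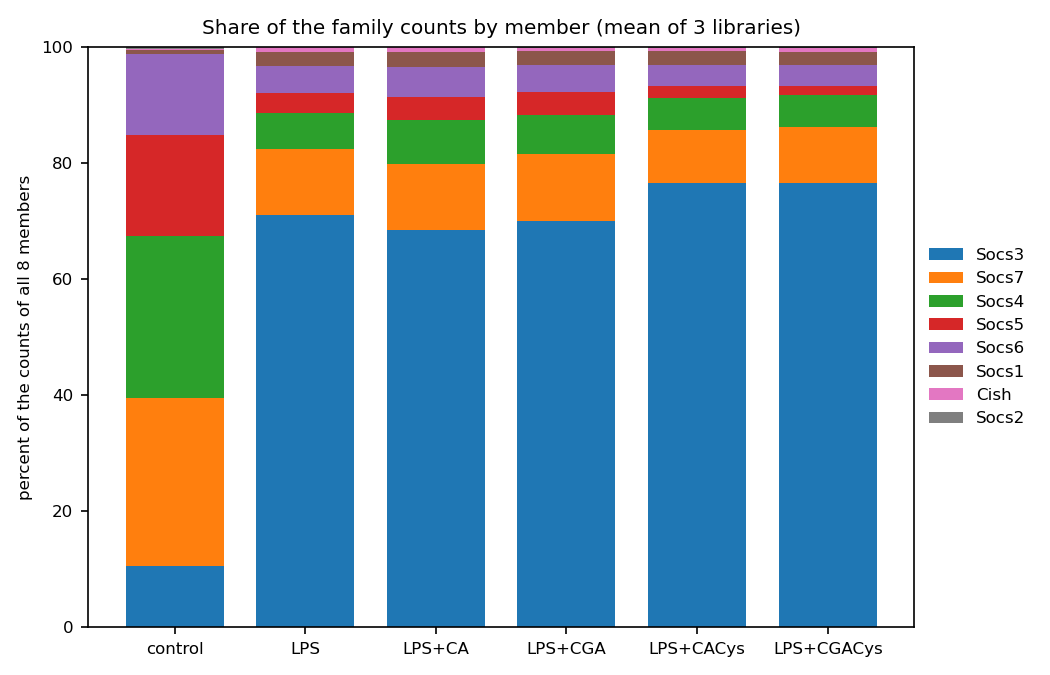
Share of the summed counts of the 8 SOCS family genes held by each gene (percent, stacked to 100, mean of 3 libraries) in the 6 groups. Socs3 takes 10.6% in control and between 68.5% and 76.6% in the groups with LPS.

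The next question was whether either acid by itself altered the SOCS response to LPS. No member was called with either acid. Socs3 was at 302, 289.8 and 313 CPM with LPS + CA, below all 3 libraries of LPS alone. The log2 difference was -0.19 (SE 0.08, 95% interval -0.36 to -0.02) with an adjusted p of 0.187 (unadjusted 0.0291), and Socs3 was the only member with an unadjusted p under 0.05. DESeq2 also called 0 members, but gave no adjusted p for Socs2. Socs4 was the other member whose groups did not overlap, at 32.8, 31.9 and 35.1 CPM, with a log2 difference of 0.13 (adjusted p = 0.28). The share of all tested genes whose groups did not overlap was not counted, so the separation of Socs3 and Socs4 is description only. With no expression filter Socs3 passed the threshold at an adjusted p of 0.00754. Across all tested genes 2.3% were called higher and 5.42% lower with CA.

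Beside the SOCS genes, 5 of the 11 tested genes of the JAK and STAT list were called with LPS + CA against LPS, each of them lower. Stat2, a factor of the interferon response, went from 200.1 ± 21.6 to 141 ± 15.5 CPM (log2 -0.51, SE 0.12, adjusted p = 0.0172). Stat3 fell by 0.37 on the log2 scale (adjusted p = 0.00547). Socs1 was at 8.52, 12.3 and 12.9 CPM with LPS + CA, 1 library below the range of LPS alone and the others within it, with a log2 difference of -0.09 (95% interval -0.51 to 0.34). That interval leaves room for a change as large as that of Stat3.

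With LPS + CGA no member was called by edgeR or DESeq2, and none had an unadjusted p under 0.05. DESeq2 gave no adjusted p here for Socs1, Socs2 and Cish. Only 0.0679% of all tested genes were called higher and 0.657% lower in this comparison. Socs3 was at 327, 344 and 338 CPM, which overlapped LPS alone with 1 library below it, and its log2 difference was -0.03 (95% interval -0.20 to 0.14). The widest interval belonged to Socs2, from -1.11 to 1.60, because it had 4 to 14 counts per library. Socs5 was at 19.8, 16.1 and 19.6 CPM and its log2 difference of 0.15 ran from -0.05 to 0.35.

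With either adduct some members differed from LPS alone. CACys with LPS raised Socs3 and Socs4 and lowered Socs5 against LPS alone (2 higher and 1 lower of 8, where 8.51% of tested genes were called higher and 5.75% lower). CGACys with LPS raised Socs2, Socs3, Socs4 and Socs7 and lowered Socs5 (4 higher and 1 lower, where 16.1% and 13% of tested genes were called). These comparisons share the LPS libraries and are not independent of each other. The summed macrophage markers given above were lower with either adduct than with LPS alone. Of the 9 tested 5 were called lower and 2 higher with each adduct. With LPS + CA 6 of the 9 were called lower and 0 higher. With LPS + CGA 0 were called. The fibroblast marker sum was 7.85 to 8.28 CPM with LPS + CGACys against 5.01 to 5.59 CPM with LPS alone. Their part in the SOCS differences was not tested.

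Socs3 reached 542, 516 and 446 CPM with LPS + CACys and 567, 542 and 484 CPM with LPS + CGACys. Both groups lay wholly above LPS alone. The log2 differences were 0.54 (SE 0.08, adjusted p = 0.00014) with CACys and 0.62 (SE 0.08, adjusted p = 1.1e-05) with CGACys, which are 1.46-fold and 1.54-fold.

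Socs4 was at 36.8, 34.9 and 37.2 CPM with LPS + CACys and at 34.9, 40.3 and 38.9 CPM with LPS + CGACys, against 30.2, 30.7 and 29.9 CPM with LPS alone. The adduct libraries were all above the LPS libraries and, with CGACys, they overlapped the range of untreated control. The log2 differences from LPS were 0.26 (SE 0.07, adjusted p = 0.00935) and 0.33 (SE 0.07, adjusted p = 0.000477).

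Socs5, by contrast, fell further below control. Its libraries held 13.2, 12.1 and 14.7 CPM with LPS + CACys and 9.99, 9.75 and 12.1 CPM with LPS + CGACys, all below LPS alone. The log2 change from LPS was -0.65 (SE 0.11, adjusted p = 2.95e-05) with CGACys. With CACys it was -0.32 (SE 0.10, adjusted p = 0.0379), and this call was lost when any of the 3 LPS libraries or CACys replicate 1 or 2 was left out (adjusted p 0.0534 to 0.195).

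Socs7 was at 66.0, 70.6 and 62.7 CPM with LPS + CGACys, above the LPS range of 51.5 to 59.3 CPM (log2 0.27, SE 0.07, adjusted p = 0.00473). With LPS + CACys it was at 62.3, 61.5 and 56.4 CPM, the groups overlapped, and the log2 difference of 0.12 was not called (95% interval -0.02 to 0.27). Socs2 had 14, 39 and 25 counts with LPS + CGACys, or 0.725, 2.03 and 1.43 CPM, against 0.497, 0.615 and 0.0539 CPM with LPS alone. The log2 difference was 1.84 (SE 0.58, 95% interval 0.66 to 3.02, adjusted p = 0.0166). It lost its call without LPS replicate 3, the library with a single Socs2 count (adjusted p = 0.0989), and without CGACys replicate 2 (adjusted p = 0.111).

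Socs1 was at 17.9, 17.1 and 14.4 CPM with LPS + CACys and at 17.9, 16.4 and 14.9 CPM with LPS + CGACys. All 6 libraries lay above the 3 of LPS alone, whose highest value was 13.0 CPM. The log2 difference was 0.46 with either adduct (SE 0.20 in both) and was not called, with adjusted p = 0.14 for CACys and 0.0926 for CGACys. It passed in a fit of only the groups compared (adjusted p = 0.00422 and 0.00118) and with no expression filter (0.00431 and 0.00224). Without the control group, in an alternative added after the spread of Socs1 in control was seen, the CGACys value was 0.0463. Cish was at 3.30 ± 0.334 CPM with LPS + CACys and 4.11 ± 1.02 CPM with LPS + CGACys, both overlapping the 3.83 ± 0.552 CPM of LPS alone. Its 95% intervals were -0.71 to 0.28 with CACys and -0.38 to 0.58 with CGACys (log2). Socs6 was called with neither adduct (log2 0.04 and 0.15).

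**Figure D3:**
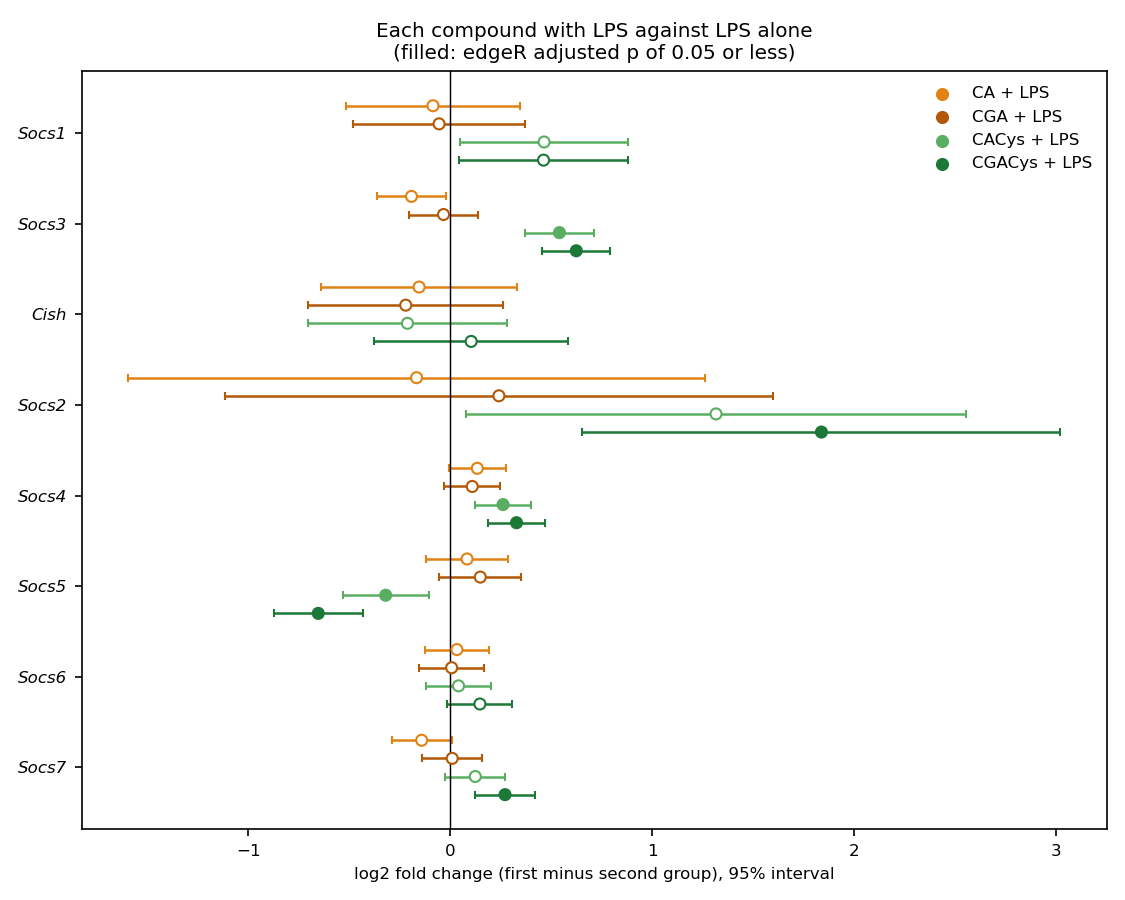
Difference of each SOCS family gene from LPS alone (log2 fold change on the x axis, with 95% interval) for the 4 compounds given with LPS; filled points have an edgeR adjusted p of 0.05 or less. The points of CA and CGA are all open, whereas Socs3 and Socs4 are filled to the right and Socs5 to the left for both adducts.

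The 4 compounds were given at the same concentration and time, so their effects were compared directly, in 4 pairs with p-values adjusted over all tested genes. CACys and CA differ by the added cysteine. Between them 3 members were higher with the adduct (Socs3, Socs1 and Socs7) and 1 was lower (Socs5), where 15.2% of tested genes were called higher and 11.9% lower. Socs3 differed by 0.73 (log2; SE 0.08, adjusted p = 1.51e-06), Socs7 by 0.27 (SE 0.07, adjusted p = 0.00624) and Socs5 by -0.40 (SE 0.10, adjusted p = 0.00353). Without LPS + CA replicate 2 these 3 members stayed called.

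Socs1 differed between CACys and CA by 0.55 (log2; SE 0.20, adjusted p = 0.0463). This call was the least steady of the comparison. It was lost without LPS + CA replicate 1 (0.161) or 2 (0.0829) and without CACys replicate 1 (0.146) or 2 (0.122). It was also lost with upper-quartile factors (0.0511) and with DESeq2 (0.0771). Socs2 had a log2 difference of 1.48 (95% interval 0.26 to 2.71) that edgeR did not call (adjusted p = 0.0659) and DESeq2 did (adjusted p = 0.0429).

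CGACys and CGA form the second pair that differs by a cysteine, and share no library with the first. Here 4 members were higher with the adduct (Socs2, Socs3, Socs4 and Socs7) and 1 was lower (Socs5), where 18.2% of tested genes were called higher and 14.9% lower. Socs3 differed by 0.66 (log2; SE 0.08, adjusted p = 3.77e-06) and Socs5 by -0.80 (SE 0.10, adjusted p = 5.91e-07), a 1.74-fold lower level. Socs7 differed by 0.26 (SE 0.07, adjusted p = 0.00489). Socs3, Socs5 and Socs7 were called in both pairs with the same sign. They are 3 of the 4 members called in the first pair and 3 of the 5 called in the second. The share of all tested genes called in both pairs with the same sign was not counted. This overlap is therefore not a result about the family.

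The remaining calls of this pair depended on single libraries. Socs4 differed by 0.22 (log2; SE 0.07, adjusted p = 0.0115), which was lost without CGA replicate 1 (0.0796) or CGACys replicate 2 (0.0834). Socs2 differed by 1.60 (SE 0.54, adjusted p = 0.0237), which was lost without CGA replicate 2 (0.138), CGACys replicate 2 (0.155) or CGACys replicate 3 (0.0587). The count of members called fell from 5 to 3 without CGACys replicate 2. Socs1 differed by 0.52 (SE 0.19) with an adjusted p of 0.05002, which lies just above the threshold, and its libraries did not overlap between the groups. With single libraries left out the adjusted p of Socs1 ran from 0.0109, without CGA replicate 2, to 0.178, without CGA replicate 1. It passed in 1 of these 6 cases. Of the 8 other alternatives it passed in 5, and the highest value was 0.0892. Among those that passed were no expression filter (0.00034), only the groups compared (0.0083) and, added later, no control group (0.0212).

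The remaining pairs set an ester against a free acid, as such or as adducts. Few of all tested genes were called in them, so a lack of called members is not a result about the family. Between CGA and CA, which differ by the quinic acid ester, no member was called by edgeR or DESeq2, and 1 had an unadjusted p under 0.05 (Socs7, 0.0441). For Socs1, Socs2, Socs5, Socs6 and Cish DESeq2 gave no adjusted p in this pair. The background was 0.634% higher and 0.747% lower. For Socs3 the log2 difference was 0.16, with an interval from -0.01 to 0.33, and for Socs1 it was 0.03 (-0.39 to 0.45). Between CGACys and CACys, again no member was called by edgeR or DESeq2, with 2 at an unadjusted p under 0.05 and a background of 1.02% higher and 0.785% lower. For Socs2 and Cish DESeq2 gave no adjusted p. Socs5 was lower with CGACys by a log2 difference of -0.33 (95% interval -0.56 to -0.11, adjusted p = 0.12), and Socs7 was higher by 0.15 (0.00 to 0.29, adjusted p = 0.346). Differences of up to 0.25 in Socs3 and up to 0.40 in Socs1 remained within the 95% intervals of this pair.

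Whether the added cysteine acted differently on the ester and on the free acid was tested as the difference between the adduct effects. No member was called by edgeR or DESeq2, and 1.09% of tested genes were called higher and 1.09% lower. Here too DESeq2 gave no adjusted p for Socs2 and Cish. Socs5 came nearest, with a difference of -0.40 (log2; SE 0.15, 95% interval -0.70 to -0.10, unadjusted p = 0.011, adjusted p = 0.165), and was the only member with an unadjusted p under 0.05. For Socs3 the difference was -0.08, with an interval from -0.31 to 0.16.

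**Figure D4:**
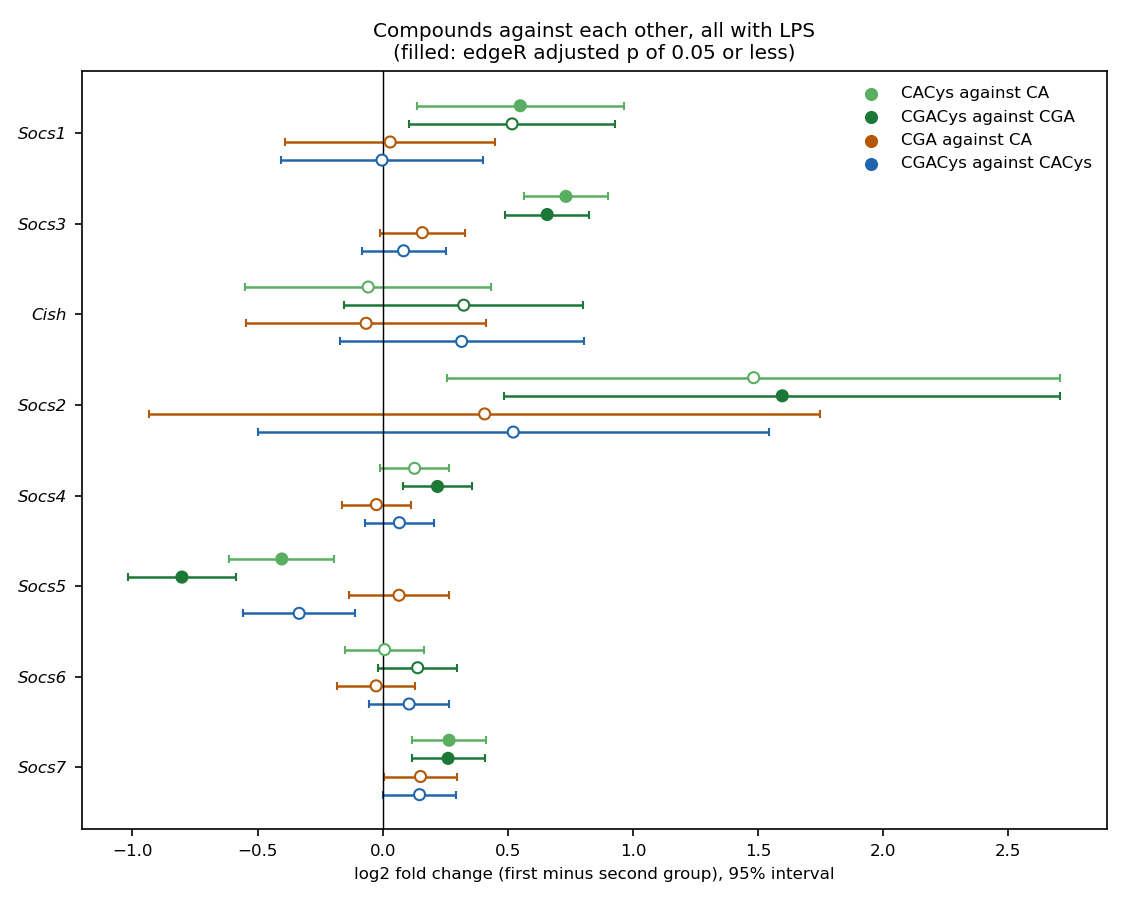
Difference of each SOCS family gene between compounds given with LPS (log2 fold change of the first minus the second, with 95% interval); filled points have an edgeR adjusted p of 0.05 or less. In both adduct and acid pairs Socs3 and Socs7 lie to the right and Socs5 to the left, and no point is filled between the acids or between the adducts.

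Taking both pairs at once, with the mean of the adduct groups against the mean of the acid groups, 5 members were higher with the adducts and 1 lower, where 21.9% of tested genes were called higher and 19.9% lower. Socs3 differed by 0.69 (log2; SE 0.06, adjusted p = 1.16e-08), Socs1 by 0.53 (SE 0.14, adjusted p = 0.00456) and Socs2 by 1.54 (SE 0.40, adjusted p = 0.00288). Socs7 differed by 0.26 (SE 0.05, adjusted p = 0.000101) and Socs4 by 0.17 (SE 0.05, adjusted p = 0.00383), although the adduct and acid libraries of both overlapped. Socs5 was lower by a difference of -0.60 (SE 0.07, adjusted p = 9.41e-08). Socs6 (0.07, 95% interval -0.04 to 0.19) and Cish (0.13, -0.21 to 0.48) were not called. Leaving out any single one of the 12 libraries called the same 6 members.

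Ordered by level, the genes fell into different patterns. Socs3 and Socs1 were highest with both adducts, which overlapped each other, then in LPS alone, LPS + CGA and LPS + CA, and lowest in control. For Socs3 the LPS + CA libraries were below those of LPS + CGA, while for Socs1 these groups overlapped. Socs5 ran from control (24.7 ± 1.97 CPM) through LPS + CGA, LPS + CA and LPS, which overlapped, to LPS + CACys (13.3 ± 1.32) and LPS + CGACys (10.6 ± 1.29), which also overlapped. Socs4 was highest in control and lowest with LPS alone, with each neighbour in the order overlapping the next. Socs7 was highest with LPS + CGACys and lowest in control, and Socs6 had the same ends with every neighbour overlapping. Cish was lowest in control, and each of its 5 LPS groups overlapped the next in order. Socs2 was highest with both adducts, and each of its other 4 groups overlapped the next.

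The genes around the SOCS loop were read from 6 lists taken from general knowledge. Their counts stand against 30.6% of all tested genes higher and 31.6% lower with LPS, and 21.9% higher and 19.9% lower with the adducts against the acids. Among ligands, 12 of 16 were tested and 11 of them rose with LPS. Several of these, such as Il12b, Csf2 and Ifnb1, had no count in control and were tested only through groups with LPS. Their rise was set by the filter, so this count is not a result about the list. Il6, whose receptor chain gp130 is a binding site of SOCS3, was at 0.036 ± 0.0624 CPM in control and 113 ± 17 CPM with LPS. Csf3, encoding granulocyte colony-stimulating factor, had no count in any control library and 37.2 ± 0.838 CPM with LPS. With the adducts against the acids 5 ligands were higher and 3 lower (median log2 0.10 over the list, 0.00 over all tested genes). Il10, whose product acts through STAT3, differed by 0.93 (log2; SE 0.10, adjusted p = 1e-08), Il27 by 0.95 (SE 0.12, adjusted p = 1.56e-07) and Il15 by 0.77 (SE 0.07, adjusted p = 1.34e-08). Csf3 went the other way, with a difference of -0.75 (SE 0.06, adjusted p = 4.11e-11).

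Among receptor genes 20 of 24 were tested, and with LPS 10 rose and 7 fell. With the adducts against the acids 15 of the 20 were called, each of them higher, with a median log2 difference of 0.32. Ghr, the growth hormone receptor and a partner of SOCS2, had the largest difference at 1.33 (SE 0.09, adjusted p = 4.25e-13). It was at 2.68 ± 0.515 CPM in control, 11.8 ± 1.5 with LPS, 8.02 ± 1.13 with LPS + CA, 9.22 ± 0.756 with LPS + CGA, 18.2 ± 2.61 with LPS + CACys and 25.5 ± 0.762 with LPS + CGACys. Il15ra differed by 0.97 (SE 0.08, adjusted p = 7.3e-11) and Il13ra1 by 0.70 (SE 0.04, adjusted p = 2e-13).

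Among JAK and STAT genes (with Irf9, a partner of STAT2) 11 of 12 were tested, and LPS raised 7 and lowered 3. All 11 were higher with the adducts than with the acids, with a median log2 difference of 0.39. Stat2 differed by 0.90 (SE 0.08, adjusted p = 8.11e-07) and Stat5a by 0.75 (SE 0.10, adjusted p = 2.85e-07). Stat5a, whose product drives Cish and Socs2 in many cell types, was at 12.4 ± 1.14 CPM in control, 8.09 ± 0.704 with LPS, 13.5 ± 2.54 with LPS + CACys and 14.97 ± 0.262 with LPS + CGACys. Cish was not called in any comparison between LPS groups. Socs2 was called higher with CGACys against LPS, with CGACys against CGA and with the adducts against the acids. A link of Stat5a to either gene was not tested.

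Of 19 inhibitors outside the SOCS family, 12 were higher with LPS and 5 lower. Usp18, which restrains the type I interferon receptor, rose from 10.9 ± 1.97 to 601 ± 80.4 CPM (log2 5.79, SE 0.14, adjusted p = 3.9e-15). With the adducts against the acids 7 of these 19 were higher and 2 lower, and the list median was 0.04. Dusp1, a MAP kinase phosphatase, differed by 1.08 (SE 0.04, adjusted p = 6.3e-18) and Usp18 by 1.03 (SE 0.07, adjusted p = 1.49e-08).

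Elongins and cullins are parts of the ligase that the SOCS box recruits, and the neddylation enzymes act on its cullin. Of 10 elongin, cullin and neddylation genes tested, 5 rose with LPS and 1 fell. With the adducts against the acids 4 were called, each of them lower, and the list median was -0.10. Nedd8, the ubiquitin-like activator of cullins, differed by -0.31 (SE 0.05, adjusted p = 5.88e-06). Ube2m, 1 of its conjugating enzyme genes, differed by -0.22 (SE 0.03, adjusted p = 1.76e-06) and Elob, encoding elongin B, by -0.20 (SE 0.04, adjusted p = 0.000314). Ube2f, another conjugating enzyme gene, was not called (0.00, SE 0.03, adjusted p = 0.962), nor was Rnf7 (-0.10, SE 0.04, adjusted p = 0.0595). Cul5, the main cullin partner of SOCS proteins, was at 76.4 ± 3.93 CPM with LPS and between 77.3 and 81.4 CPM on average with the 4 compounds. Of the other genes with a SOCS box 15 of 27 were tested, and 5 were higher and 3 lower with the adducts against the acids. Asb2 differed by 0.73 (SE 0.05, adjusted p = 1.2e-10), whereas Spsb4 and Asb1 each differed by -0.39 (adjusted p = 0.000242 and 1.83e-06).

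**Figure D5:**
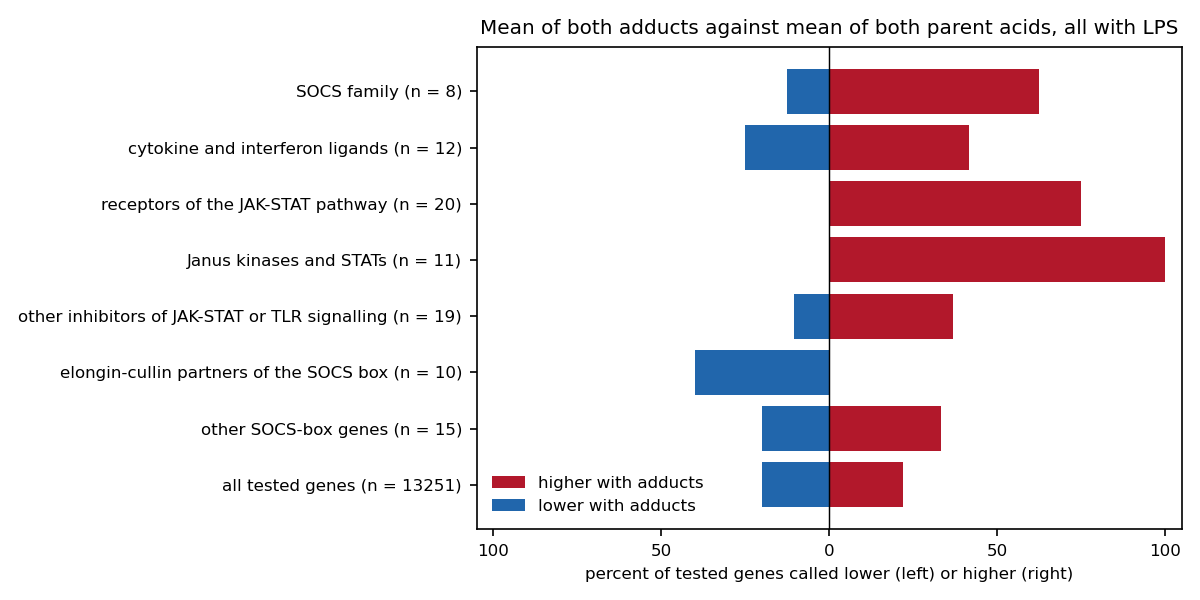
Share of tested genes called higher (right) or lower (left) with the mean of both adducts against the mean of both acids, all with LPS, for the SOCS family, 6 lists of related genes and all 13251 tested genes. The JAK and STAT list is called higher throughout and the elongin and cullin list is called in the lower direction alone; the bars count genes called at an edgeR adjusted p of 0.05 or less.

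Genes with a similar profile were sought among genes with a mean of at least 10 CPM, by the root-mean-square difference of their centred log2 levels over the group means. The measure describes these 6 or 5 points, which share all libraries, and carries no test. Over all 6 groups Socs3 was nearest to Cd274 (encoding PD-L1, difference 0.15), Zbp1 (0.15) and H2-T24 (0.16), and Socs1 to Rtp4 (0.10), Parp14 (0.11) and Gm15433 (0.13). Cd274 was at 7.98 ± 0.879 CPM in control, 154 ± 14.8 with LPS and 241 ± 9.68 with LPS + CGACys. Over the 5 groups with LPS Socs3 was nearest to Il4ra, the interleukin 4 receptor gene (0.03), Sema4a (0.03) and Cyth4 (0.04). Il4ra was at 87.0 ± 4.71 CPM with LPS alone, 80.4 ± 6.27 with LPS + CA, 129 ± 2 with LPS + CACys and 141 ± 7.69 with LPS + CGACys. Socs5 was nearest to Tarbp1 over both sets of groups (0.03 in each), which went from 43.2 ± 0.857 CPM in control to 28.7 ± 2.11 with LPS and 17.6 ± 0.9 with LPS + CGACys. The other nearest genes of Socs5 were Tbc1d24 (0.05) and Nprl2 (0.06) over 6 groups and Mrpl34 (0.03) and Fut11 (0.04) over 5. Over 5 groups Socs1 was nearest to Capn2, Adssl1 and Dbnl (0.03 each). Socs4 was nearest to Lmbr1l (0.03), Ubtd1 (0.03) and Bicral (0.03) over 6 groups and to Acvr2a (0.01), Usp38 (0.02) and Slc2a1 (0.02) over 5. Socs7 was nearest to Lancl2 (0.02), Slc9a8 (0.02) and Zbtb39 (0.03) over 6 groups and to Ift140 (0.01), Fnip2 (0.01) and Med26 (0.02) over 5. Socs2 was nearest to Ccr2 (0.20), Arc (0.23) and Adap2 (0.24) over 6 groups and to Ly6a (0.16), Arrdc3 (0.17) and Ccr2 (0.17) over 5. H2-T24 and Gm15433 may share reads with similar genes, so their counts are uncertain.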

How the data were processed

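Total RNA was sequenced from 18 libraries of RAW264.7 cells in 6 groups of 3. The deposited values are raw counts per Ensembl gene. Alignment to mm10 used HISAT and the authors also used DESeq2, per the submitters' processing notes, without versions. The counting program, strand setting and annotation are not given in the sources used here. Coordinates come from a RefSeq gene table of build GRCm38.p6, in which 12411 tested symbols were matched and 840 were not. No sequences or transcript lengths were used.

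All libraries entered 1 fit in edgeR 4.0.16 (R 4.3.3) with filterByExpr by group, TMM factors and robust quasi-likelihood dispersions. The 11 comparisons were contrasts of this fit, with Benjamini-Hochberg adjustment over 13251 genes. The SE was taken from each log2 change and its F statistic. The steps were tested on simulated data for CACys against LPS only, with changes planted in genes of at least 50 counts. Genes with as few counts as Socs2 were not among these, and the other comparisons were not simulated. Whether the libraries of a group are separate cultures is not stated in the labels. The p-values then reflect only how far these libraries spread, which may be technical. Socs2 and, in control, Cish and Socs1 had few counts, which widens their intervals. The highest correlation of log2 CPM across genes between 2 libraries was 0.993, and no pair was identical.

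The members, gene lists and tests were chosen with earlier results of these data known. All members are named in every comparison, and from each list up to 3 called genes with the largest change and at least 50 counts in a comparison. Values of some listed genes are not reported here. The 3 nearest profiles are given for each of the 6 members called between LPS groups. Alternatives were RLE and upper-quartile factors, 2 other filters, DESeq2 1.42.0, only the groups compared, a replicate block, each library left out, and, added later, no control group.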

Additional observations from a re-analysis of the deposited data

How the results depend on the processing

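The 29 called differences of SOCS genes were recomputed in 436 alternatives, of which 418 kept direction and call, 18 lost the call and 0 turned. The 59 differences not called were recomputed in 869 alternatives, of which 17 became called. The sign turned in 53, all of differences that were not called either way. With no expression filter 1 member, Socs3, was called with CA and LPS against LPS. Leaving out single libraries gave counts of 3 to 5 for CGACys against CGA. With upper-quartile factors the log2 sign turned for Socs6 in CACys against CA (-0.0168), Socs1 in CGACys against CACys (0.00127) and Socs7 in the difference of adduct effects (0.0111), and with no filter for Socs6 in CACys against CA (-0.000127). Leaving out 1 library at a time also turned signs, with these log2 ranges. For CA against LPS they were -0.182 to 0.0786 (Socs1) and -0.686 to 0.337 (Socs2). For CGA against LPS they were -0.257 to 0.105 (Socs1), -0.276 to 0.731 (Socs2), -0.0264 to 0.0421 (Socs6), -0.0518 to 0.0663 (Socs7) and -0.391 to 0.0185 (Cish). For LPS against control Socs2 ran from -0.723 to 0.283, and for CGACys against LPS Cish ran from -0.121 to 0.227. For CACys against CA the ranges were -0.018 to 0.0492 (Socs6) and -0.182 to 0.152 (Cish). For CGA against CA they were -0.172 to 0.19 (Socs1), -0.0947 to 0.862 (Socs2), -0.0729 to 0.0206 (Socs4), -0.0601 to 0.00305 (Socs6) and -0.238 to 0.172 (Cish). For CGACys against CACys Socs1 ran from -0.0922 to 0.0609. For the difference of adduct effects they were -0.192 to 0.169 (Socs1), -0.341 to 0.616 (Socs2) and -0.0812 to 0.062 (Socs7). The cause of these changes was not tested. DESeq2 gave no adjusted p for 13 member tests, which are left out.

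Replicate numbers are shared between groups, and the labels do not say that they pair the libraries. Deviations from the group means were correlated between libraries of the same number. In 0 of 15 pairs of groups did all 3 numbers correlate above 0.1 (range -0.125 to 0.106). Whether libraries of the same number were handled together cannot be told from these correlations. With a replicate block the calls were the same, except that Socs1 was also called in CGACys against CGA (adjusted p = 0.0460), which made the count there 6 in place of 5. RLE factors and a fit of only the groups compared also called Socs6 with LPS (adjusted p = 0.0396 and 0.0428). A filter of 1 CPM in 3 libraries called Socs1 in CGACys against CGA (0.0445). Of 96 levels recomputed with other factors, 1 moved by over 1 SD, Socs4 in control (41.4 CPM with upper-quartile factors). The number of all genes called, which sets the background, moved by more than 1.5 times in 5 comparisons between LPS groups and in the difference of adduct effects. For CGA against LPS it was 96, against 290 with no filter, 262 with DESeq2, 283 with only the groups compared, 197 with the block and 54 without control. For CGA against CA it was 183, against 614, 414, 3 with only the groups compared and 85 without control. For CGACys against CACys it was 239, against 409, 370 and 560 in the first 3 of these alternatives, and for the difference of adduct effects 289, against 457, 436 and 166. Fitting only the groups compared gave 434 in place of 1023 for CA against LPS and 2145 in place of 3589 for CACys against CA. With upper-quartile factors the median of all genes for LPS against control was -0.10.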

Other observations

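Within a library the ratio of Socs3 to Socs5 counts does not depend on the scaling factors, and it was looked at after the levels had been seen. Control libraries held 0.653, 0.634 and 0.531 Socs3 counts per Socs5 count, and the LPS libraries 20.9, 22.6 and 18.8. The ratio was 17.2, 16.2 and 17.9 with LPS + CA and 16.5, 21.4 and 17.2 with LPS + CGA. It was 41.0, 42.7 and 30.3 with LPS + CACys and 56.8, 55.6 and 40.0 with LPS + CGACys. All 6 adduct libraries thus stood above all 9 other LPS libraries, with the lowest at 30.3 and the highest of the others at 22.6. The ratio depends on transcript lengths and was given no test.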
